A study of Homo sapiens with 6 samples.

Results

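The genes described here encode the receptors for glutamate, GABA (gamma-aminobutyric acid) and glycine, the main fast transmitters of the central nervous system. They were chosen by gene symbol: the AMPA (GRIA), kainate (GRIK), delta (GRID) and NMDA (GRIN) subunits, the metabotropic glutamate receptors (GRM), the GABA-A subunits (GABRA to GABRR), the GABA-B receptors (GABBR1 and GABBR2) and the glycine receptor subunits (GLRA and GLRB). Of 52 such protein-coding genes in the GENCODE 29 annotation, 39 had a row among the 22718 genes of the deposited tables. The 13 without a row were GRIK1, GRIN2A, GRIN2B, GRM6, GABRA6, GABRB1, GABRE, GABRR1, GABRR2, GABRR3, GLRA1, GLRA2 and GLRA4, which were not analysed here.

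RNA sequencing measured transcript levels in cultures labelled HT1197, an established line from a human bladder carcinoma. The 3 control libraries came from cells kept for 48 hours with vehicle (1% DMSO), per the labels' treatment protocol, although another label calls them untreated. The 3 treated libraries came from cells kept for 48 hours with panobinostat, an inhibitor of histone deacetylases, at 2 times the IC50 determined in that line. Both arms shared the line, the medium and the seeding, and the labels do not tie a library to a dish, so p-values measure the spread between these libraries, which may be technical. Total counts ran from 13417898 to 18186087 per library, and the Spearman correlation across genes was 0.977 to 0.986 for libraries of the same arm and 0.934 to 0.943 for libraries of different arms.

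The markers of the libraries did not match their label. Of 18 urothelial markers 10 had a row, and 8 of these 10 lay under 1 FPKM (fragments scaled to gene length and library total) in the vehicle mean. KRT8 stood at 0.0115 FPKM, UPK1B, FOXA1 and TP63 had 0 vehicle counts, and GATA3, which neuroblasts also express, stood at 10.6 FPKM. The 10 markers summed to between 11.0 and 15.3 FPKM in vehicle libraries and between 11.7 and 15.5 with panobinostat. Of 11 adrenergic neuroblast markers, a list written with earlier results of these data known, 10 stood at 10 FPKM or more, led by MYCN at 832 FPKM, while TH, the first enzyme of noradrenaline synthesis, stood at 0.0875. The libraries are therefore called those labelled HT1197, with no other name given to the cells.

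Glutamate opens cation channels of the AMPA, kainate and NMDA families, each built from several subunits, and also acts on slower metabotropic receptors that couple to G proteins. GABA and glycine open chloride channels of the Cys-loop family, and GABA also acts on the metabotropic GABA-B receptor. A subunit mix sets the kinetics, ion permeability and pharmacology of a channel, and developing neuroblasts and several tumours express such receptors outside mature synapses.

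Of the 39 receptor genes, 34 had enough counts to be tested, of which 17 rose and 11 fell with panobinostat, at an adjusted p (Benjamini-Hochberg, edgeR's quasi-likelihood test) of 0.05 or less. Over all 16084 genes tested, 33.7% rose and 31.5% fell. The panobinostat libraries lay wholly above the vehicle libraries for 18 of the 34 receptor genes and wholly below for 11, and the arms overlapped for 5. The share of all tested genes with arms apart was not computed, so these counts mark nothing particular to the receptors. For 7 of the genes that rose, the vehicle libraries alone would not have passed the filter on low counts. Among them were GRIN1, GRIN3B, GRM4, GRM5, GABRD and GABRG1. Selection through the panobinostat libraries favours a rise, so their number supports nothing. Among the 27 genes that passed in both arms, 10 rose, 11 fell and 6 did not pass the test. Over all 13753 genes that passed in both arms, 29.0% rose and 35.7% fell. The median log2 fold change of the 27 was -0.22, beside -0.06 over the 13753.

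Over the whole table, calls differed with level. Of all tested genes with a mean under 1 CPM (counts scaled to the library by TMM), 45.7% rose and 6.8% fell. The shares were 43.9% and 16.7% between 1 and 10 CPM, 28.5% and 40.5% between 10 and 100 CPM, and 22.7% and 48.1% at 100 CPM or more. Among the receptor genes, 4 of the 9 under 1 CPM rose, 0 fell and 5 were not tested. Of the 16 between 1 and 10 CPM, 8 rose and 4 fell. Of the 11 between 10 and 100 CPM, 5 rose and 5 fell, and of the 3 at 100 CPM or more 0 rose and 2 fell. Genes that rose made up 51.7% of all changed genes with TMM, 61.0% with library size alone and 63.2% with upper quartile scaling. Those scalings shifted the median change over the table by 0.11 and 0.14 (log2), and changed no receptor gene's direction.

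The upstream stretches of 5 receptor genes are printed here because these genes carry both ends of the pattern: GABRG1, GLRA3 and GRIN3B rose from a low vehicle level, and GRIK3 and GRIK2 were among the most abundant genes that fell. They come from RefSeq (GRCh38.p14), run 5′ to 3′ on the gene's strand toward RefSeq's start, and stop where any annotated exon begins. Capitals mark CG dinucleotides. The stretches are GABRG1 at chr4:46124082-46124304 (minus strand, 223 bases, 6 CG), GLRA3 at chr4:174829315-174829497 (minus, 183 bases, 14 CG), GRIN3B at chr19:1000169-1000418 (plus, 250 bases, 28 CG), GRIK3 at chr1:37034516-37034765 (minus, 250 bases, 29 CG) and GRIK2 at chr6:101393458-101393707 (plus, 250 bases, 25 CG, within the span that GENCODE gives the gene).
GABRG1: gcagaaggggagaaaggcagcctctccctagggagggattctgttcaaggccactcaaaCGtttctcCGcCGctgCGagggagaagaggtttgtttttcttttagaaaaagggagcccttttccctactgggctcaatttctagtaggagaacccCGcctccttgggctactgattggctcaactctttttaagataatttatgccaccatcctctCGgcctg
GLRA3: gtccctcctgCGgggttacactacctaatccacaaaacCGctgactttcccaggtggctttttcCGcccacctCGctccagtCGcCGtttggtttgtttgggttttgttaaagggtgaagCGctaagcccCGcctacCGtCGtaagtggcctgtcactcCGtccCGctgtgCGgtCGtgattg
GRIN3B: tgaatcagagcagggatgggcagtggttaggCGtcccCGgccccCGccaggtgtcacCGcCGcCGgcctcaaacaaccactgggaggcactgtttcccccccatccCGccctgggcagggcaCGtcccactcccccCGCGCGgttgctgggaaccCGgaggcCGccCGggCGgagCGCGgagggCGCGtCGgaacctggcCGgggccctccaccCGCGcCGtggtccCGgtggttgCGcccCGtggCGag
GRIK3: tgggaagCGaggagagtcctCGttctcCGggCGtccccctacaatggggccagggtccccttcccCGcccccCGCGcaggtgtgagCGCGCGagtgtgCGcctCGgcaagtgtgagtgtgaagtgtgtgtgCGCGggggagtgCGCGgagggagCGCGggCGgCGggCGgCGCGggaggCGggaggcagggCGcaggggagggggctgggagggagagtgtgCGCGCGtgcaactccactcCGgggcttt
GRIK2: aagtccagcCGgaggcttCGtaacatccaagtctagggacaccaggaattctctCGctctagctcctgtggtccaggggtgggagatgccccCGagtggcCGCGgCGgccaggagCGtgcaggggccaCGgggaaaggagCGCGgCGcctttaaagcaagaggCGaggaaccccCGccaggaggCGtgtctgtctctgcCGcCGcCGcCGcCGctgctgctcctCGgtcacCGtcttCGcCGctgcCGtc

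RefSeq windows of 300 bases (250 before to 50 after the start) were found for 27 of the 39 genes, and the first listed window of each was used. Over 34796 distinct windows of the table the median was 14 CG. Of the 11 windows of genes that rose, 8 held more than that, with a median of 26, and of the 8 windows of genes that fell, 6 did, with a median of 29.5. Windows of both directions thus mostly held more CG than that median. The median covers every listed window of a gene, not only the first, so the sets are unlike. On both strands, the letters GGGCGG (a GC box) occurred in 6 of the 11 and 5 of the 8, beside 44.9% of all windows. TGACGTCA (a cyclic AMP response element) occurred in 1 and 0, beside 1.84%, CACGTG (an E-box) in 2 and 0, beside 7.21%, and TATAAA in 0 and 0, beside 11.6%. No motif of the 4 contains another, and these are matches of letters in 1 window a gene.

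Among the receptor genes reported singly here, GRIK3, a kainate subunit, had the highest level per length under vehicle, at 28.0 ± 1.89 FPKM (mean ± SD, n = 3 libraries here and below). GRIA2, an AMPA subunit, came next at 12.6 ± 0.130 FPKM, and their libraries did not overlap. GRIK2 (7.90 ± 0.194), GRID1 (6.80 ± 0.846), GRM8 (5.58 ± 0.289) and GRIA4 (4.25 ± 0.285 FPKM) followed. GRIK2 and GRID1 overlapped between libraries, since vehicle library A of GRID1 (7.78) exceeded library B of GRIK2 (7.70 FPKM). GRID1, GRM8 and GRIA4 did not overlap with each other. GLRB (3.50 ± 0.212) and GRIK5 (3.35 ± 0.437 FPKM) overlapped, with GRIN3A (2.81 ± 0.0931 FPKM) below both.

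**Figure D1:**
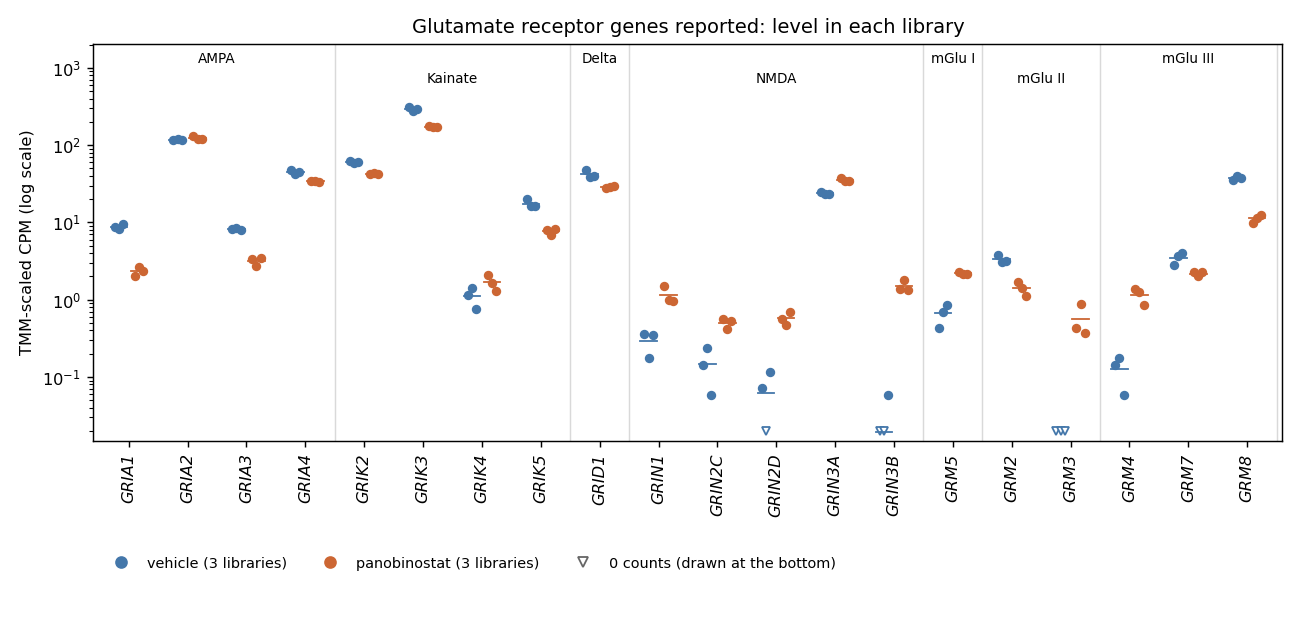
Level of 20 glutamate receptor genes (TMM-scaled CPM, log axis) in the 3 vehicle and 3 panobinostat libraries, with a bar at each arm's mean and open triangles for libraries with 0 counts. GRIA1, GRIA3, GRIK5 and GRM8 show clear gaps downward, while GRIA2 lies between 116 and 131 CPM in all 6 libraries.

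AMPA receptors carry most fast excitatory transmission, and 3 of their 4 subunit genes fell, beside 31.5% of all genes tested. With 4 genes, that count marks nothing particular to the family. GRIA1 (ENSG00000155511, chromosome 5, 153489615 to 153813869 on GRCh38), the subunit trafficked in synaptic plasticity, stood at 8.80, 8.19 and 9.47 CPM in vehicle libraries A, B and C, and at 2.00, 2.66 and 2.36 CPM in panobinostat libraries A, B and C. All panobinostat values lay several CPM below the lowest vehicle value. The log2 fold change was -1.90 ± 0.17 (estimate ± SE, edgeR adjusted p = 1.65e-07). GRIA3 (chromosome X, 123184153 to 123490915) read 8.15, 8.54 and 7.91 CPM with vehicle and 3.35, 2.72 and 3.48 CPM with panobinostat, again with no overlap, a change of -1.36 ± 0.16 (edgeR adjusted p = 2.92e-06). GRIA4, a subunit with rapid kinetics, fell with a log2 fold change of -0.39 ± 0.08, from 44.6 ± 2.61 to 33.9 ± 0.180 CPM, or -0.25 with upper quartile scaling.

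GRIA2 (ENSG00000120251, chromosome 4, 157204182 to 157366075), whose edited subunit makes AMPA channels nearly impermeable to calcium, was the exception. It read 116, 119 and 116 CPM with vehicle and 131, 122 and 121 CPM with panobinostat. The log2 fold change of 0.09 ± 0.07 did not pass (edgeR adjusted p = 0.261), although each panobinostat library lay above each vehicle library. It passed upward with library size alone (0.20, edgeR adjusted p = 0.0179), with upper quartile scaling (0.23, edgeR adjusted p = 0.00871) and with limma on FPKM (adjusted p from 0.0278 to 0.0384 over 3 settings). GRIA2 made up 65.7 ± 1.20% of the summed AMPA subunit FPKM with vehicle and 77.0 ± 0.918% with panobinostat. GRIA1's share was 5.79 ± 0.426% and 1.70 ± 0.289%, and the summed level was 19.2 ± 0.267 and 18.8 ± 0.765 FPKM. Shares within a family do not depend on library scaling, while summed FPKM does, and both are given here without a test.

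Kainate receptors modulate release and excitability, and 3 of the 4 kainate subunit genes with a row fell, beside 31.5% of all genes tested. So few genes mark nothing particular to the family. GRIK3 (ENSG00000163873, chromosome 1, 36795527 to 37034129), a pore-forming subunit of low agonist affinity, stood at 313, 278 and 292 CPM with vehicle and 176, 172 and 171 CPM with panobinostat. The arms were far apart relative to the spread in each, and the change was -0.76 ± 0.07 (edgeR adjusted p = 2.75e-07). GRIK2 (chromosome 6, 101181257 to 102070083), another pore-forming subunit, read 61.5, 59.4 and 61.0 CPM against 42.9, 43.5 and 42.1, a change of -0.50 ± 0.07 (edgeR adjusted p = 2.92e-05). GRIK5, a high-affinity subunit that works only together with others, fell from 17.5 ± 2.12 to 7.72 ± 0.714 CPM (-1.17 ± 0.13). GRIK4, the other high-affinity subunit, was scarce, at 1.15, 1.40 and 0.751 CPM with vehicle and 2.07, 1.66 and 1.29 CPM with panobinostat. Its arms overlapped and its 0.58 ± 0.31 did not pass (edgeR adjusted p = 0.109).

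Summed over the kainate subunits, the level was 39.4 ± 2.49 FPKM with vehicle and 25.6 ± 0.568 with panobinostat. GRIK3 made up 71.1 ± 0.407% of it with vehicle and 69.4 ± 0.148% with panobinostat, and GRIK2 20.1 ± 0.786% and 23.5 ± 0.482%. The stretches printed above for GRIK3 and GRIK2 hold 29 and 25 CG pairs.

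GRID1 (chromosome 10, 85599555 to 86366493), a delta receptor that binds synaptic organizers rather than acting as an ordinary glutamate-gated channel, stood at 47.5, 38.9 and 39.4 CPM with vehicle and 28.0, 28.6 and 29.9 CPM with panobinostat. Its arms did not overlap, and the change was -0.54 ± 0.09 (edgeR adjusted p = 1.49e-04).

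NMDA receptors are coincidence detectors that need GRIN1 in each complex. GRIN3A was the NMDA subunit gene that passed the filter in both arms, and it rose. GRIN1 and GRIN3B passed through the panobinostat libraries only, which favours a rise. GRIN2C and GRIN2D were too scarce to test, and GRIN2A and GRIN2B had no row. GRIN3A (ENSG00000198785, chromosome 9, 101569353 to 101738580), whose subunit lowers calcium entry and binds glycine, stood at 24.4, 23.3 and 23.5 CPM with vehicle and 37.0, 34.5 and 33.9 CPM with panobinostat. The arms were tight and apart, at 0.56 ± 0.09 (edgeR adjusted p = 3.80e-05). The gene PPP3R2 lies within GRIN3A on the same strand, so reads there could be assigned to either. GRIN1 (chromosome 9, 137138390 to 137168762), the obligatory subunit, had only 14 vehicle counts in all, and read 0.361, 0.176 and 0.347 CPM against 1.50, 1.01 and 0.964 CPM (1.94 ± 0.40, edgeR adjusted p = 6.19e-04).

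GRIN3B (chromosome 19, 1000419 to 1009732), a glycine-binding subunit known from motor neurons, had 0, 0 and 1 counts in vehicle libraries and 19, 30 and 25 in panobinostat libraries. The ratio of the arms was 72.0, with an exact 95% counting interval of 12.5 to 2883 that covers counting error only (edgeR adjusted p = 1.45e-06). GRIN2D, a subunit of early development, had 1, 0 and 2 counts against 8, 8 and 13, a ratio of 9.41 (2.92 to 48.3), and was not tested. GRIN2C, a subunit of cerebellar granule cells, had 2, 4 and 1 counts against 8, 7 and 10 and was not tested either. Of the summed NMDA subunit FPKM (2.88 ± 0.104 with vehicle and 5.32 ± 0.278 with panobinostat), GRIN3A made up 97.4 ± 0.738% and 84.4 ± 0.667%. GRIN3B made up 0.196 ± 0.339% and 8.88 ± 1.56%, and GRIN1, the subunit that each complex needs, 1.45 ± 0.483% and 3.34 ± 0.706%.

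GRM5 (chromosome 11, 88504576 to 89065945), a group I metabotropic receptor that couples to phospholipase C, read 0.433, 0.702 and 0.866 CPM with vehicle and 2.28, 2.13 and 2.14 CPM with panobinostat. Each panobinostat library lay above each vehicle library, and the gene rose (1.67 ± 0.29, edgeR adjusted p = 1.35e-04). GRM5 passed the filter through panobinostat libraries only, which favours a rise, so the gap between its arms is no added support.

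Groups II and III, which couple to inhibition of adenylyl cyclase, were mixed. GRM8 (ENSG00000179603, chromosome 7, 126438598 to 127253294), a presynaptic receptor of group III, stood at 35.4, 39.8 and 37.4 CPM with vehicle and 9.92, 11.4 and 12.4 CPM with panobinostat. It had the lowest adjusted p of the receptor genes that fell, with -1.73 ± 0.10 (edgeR adjusted p = 3.00e-09). GRM2, of group II, fell from 3.75, 3.04 and 3.18 CPM to 1.71, 1.42 and 1.12 CPM (-1.24 ± 0.23). GRM7, another presynaptic receptor of group III, fell from 3.49 ± 0.609 to 2.18 ± 0.149 CPM (-0.69 ± 0.21, edgeR adjusted p = 0.00951), a call lost with limma on unfiltered FPKM (adjusted p = 0.0718). The arms of GRM2 and GRM7 did not overlap.

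GRM4, a group III receptor, had 2, 3 and 1 counts with vehicle and 19, 21 and 16 with panobinostat (3.11 ± 0.48, edgeR adjusted p = 4.17e-05), a call lost with limma on unfiltered FPKM (adjusted p = 0.122). Like GRM5, GRM4 passed the filter through panobinostat libraries only. GRM3, of group II, had 0 counts in each vehicle library and 6, 15 and 7 with panobinostat. With the vehicle arm set to a floor of 3 counts in all it was 9.09-fold higher, but it was too scarce to test. This ratio leaves out counting error of the panobinostat arm. GRM8 made up 83.0 ± 0.797% of the summed metabotropic FPKM with vehicle and 44.3 ± 4.72% with panobinostat, and the sum was 6.72 ± 0.287 and 4.08 ± 0.0649 FPKM.

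**Figure D2:**
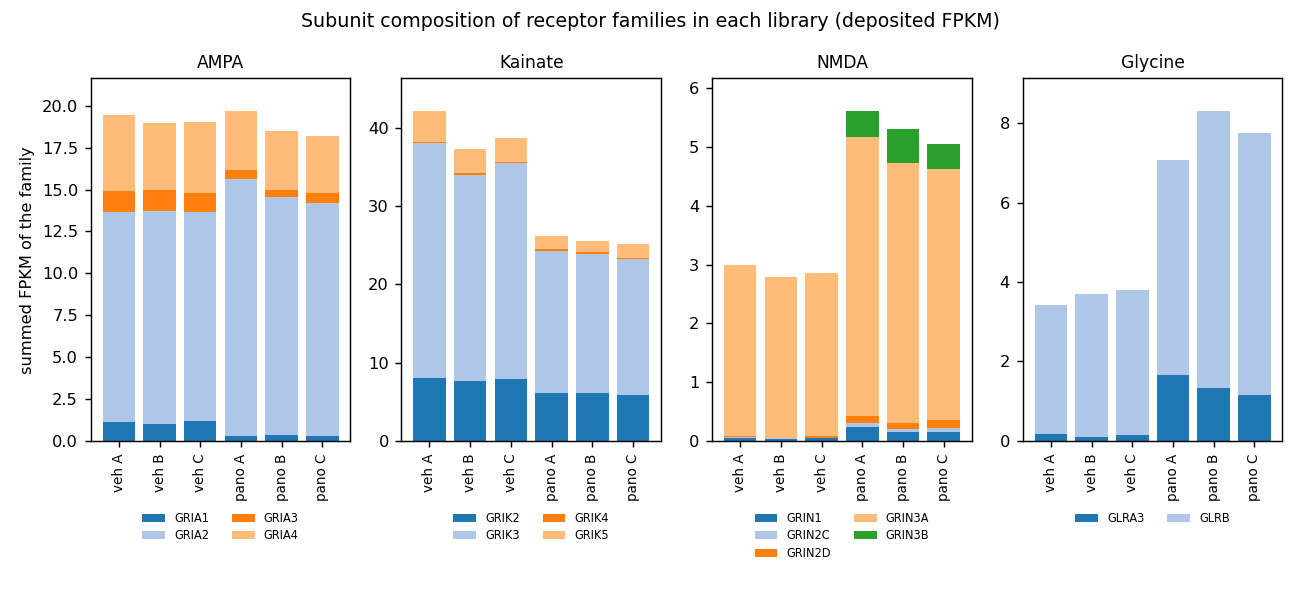
Stacked bars of the authors' FPKM of each subunit gene in 4 receptor families, for vehicle (veh) and panobinostat (pano) libraries A to C, with a separate linear axis from 0 for each family. GRIA2 fills a larger part of the AMPA bar with panobinostat (77.0% against 65.7%), and GRIN3A a smaller part of the NMDA bar (84.4% against 97.4%).

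GABA-A receptors are pentamers, most often of alpha, beta and gamma subunits. Of the 13 GABA-A subunit genes with a row, 7 rose, 1 fell, 3 did not pass and 2 were not tested. Beside this stand 33.7% of all tested genes that rose and 31.5% that fell. Whether the family differed from these shares was not tested. Of the 7, GABRD and GABRG1 passed the filter through panobinostat libraries only, which favours a rise. GABRG1 and GABRA2 had the largest fitted rises of those with more than 3 vehicle counts.

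**Figure D3:**
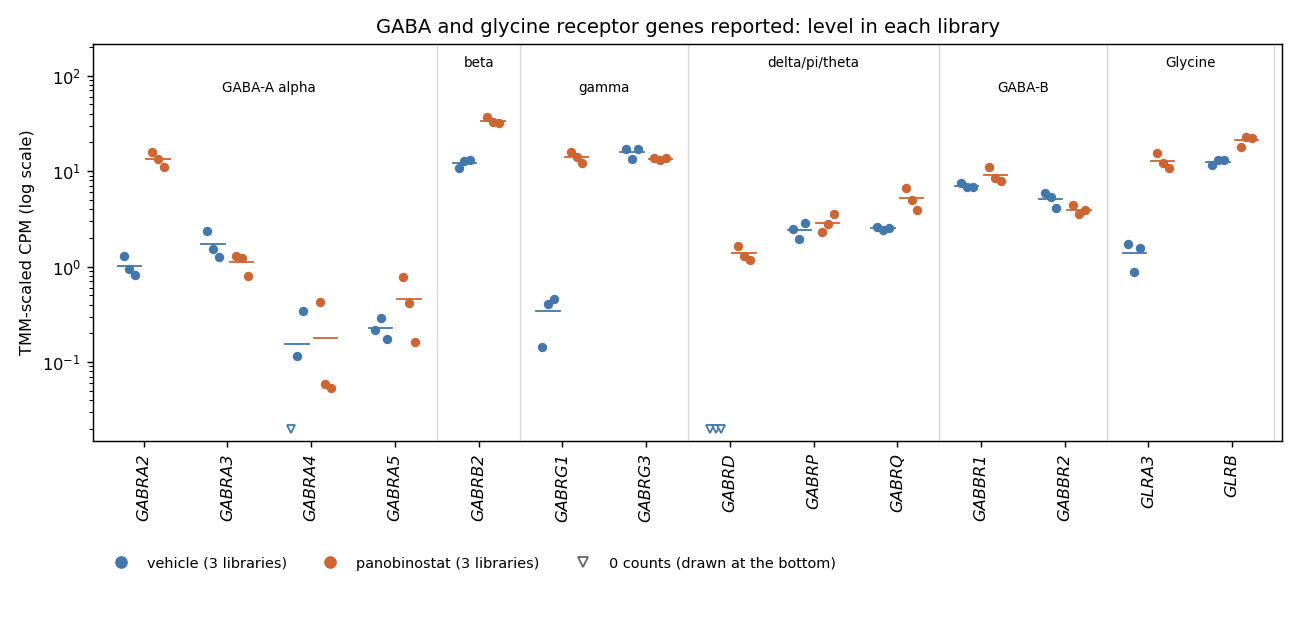
Level of 14 GABA and glycine receptor genes (TMM-scaled CPM, log axis) in the 3 vehicle and 3 panobinostat libraries, with a bar at each arm's mean and open triangles for libraries with 0 counts. GABRA2, GABRG1, GABRD and GLRA3 sit near or under 1 CPM with vehicle apart from 1.73 and 1.56 CPM for GLRA3 and 1.30 CPM for GABRA2, and at 1.18 CPM or more with panobinostat.

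Among the alpha subunits, which with the gamma subunit form the benzodiazepine site, GABRA2 (ENSG00000151834, chromosome 4, 46248427 to 46475230) stood at 1.30, 0.936 and 0.809 CPM with vehicle and 15.8, 13.5 and 11.1 CPM with panobinostat. Each panobinostat library lay many times above each vehicle library, at 3.74 ± 0.21 (edgeR adjusted p = 1.72e-09). GABRA3, an alpha subunit of early development, read 2.38, 1.52 and 1.27 CPM against 1.28, 1.24 and 0.804 CPM. Its arms overlapped and -0.63 ± 0.31 did not pass (edgeR adjusted p = 0.0923). GABRA4, with 0, 2 and 6 counts against 6, 1 and 1, and GABRA5, with 3, 5 and 3 against 11, 7 and 3, were too scarce to test. GABRA4 and GABRA5 contribute to receptors outside synapses.

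GABRB2 (ENSG00000145864, chromosome 5, 161288429 to 161549044), a beta subunit, stood at 10.7, 12.8 and 13.1 CPM with vehicle and 36.9, 32.8 and 31.9 CPM with panobinostat. The arms were far apart relative to their spread, at 1.47 ± 0.11 (edgeR adjusted p = 2.28e-08). GABRB2 made up 5.96 ± 0.726% of the summed GABA-A FPKM with vehicle and 11.9 ± 0.426% with panobinostat.

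Gamma subunits take part in placing GABA-A receptors at synapses. GABRG1 (ENSG00000163285, chromosome 4, 46035769 to 46124081) had 2, 7 and 8 counts with vehicle and 221, 236 and 230 with panobinostat, which is 0.144, 0.410 and 0.462 CPM against 15.8, 14.0 and 12.3 CPM. The 3 panobinostat libraries resembled each other closely, and the change was 5.28 ± 0.25 (edgeR adjusted p = 2.18e-10), resting on 17 vehicle counts. GABRG3 read 17.0, 13.4 and 16.9 CPM against 13.7, 13.0 and 13.9 CPM, with overlapping arms, and -0.22 ± 0.12 did not pass (edgeR adjusted p = 0.120). Without vehicle library B, the low one, GABRG3 passed at -0.33 (edgeR adjusted p = 0.0249). GABRG1 made up 0.245 ± 0.125% of the summed GABA-A FPKM with vehicle and 7.28 ± 0.655% with panobinostat.

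GABRD (chromosome 1, 2019298 to 2030758), the delta subunit of extrasynaptic receptors that answer to low GABA, had 0 counts in each vehicle library and 23, 22 and 22 with panobinostat. It was 21.7-fold higher with the vehicle arm set to that floor of 3 counts in all (edgeR adjusted p = 3.16e-06). That ratio leaves out counting error of the panobinostat arm. GABRQ, the theta subunit, rose from 2.60, 2.40 and 2.54 CPM to 6.64, 5.03 and 3.96 CPM (1.04 ± 0.21, edgeR adjusted p = 5.72e-04), with a wide spread in the panobinostat arm but no overlap. GABRP, the pi subunit known from epithelia and the uterus, read 2.45, 1.93 and 2.89 CPM against 2.28, 2.78 and 3.59 CPM, and 0.27 ± 0.24 did not pass. The summed GABA-A level was 19.7 ± 0.561 FPKM with vehicle and 29.4 ± 1.99 with panobinostat.

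Most GABA-A genes lie in clusters. In the cluster at 4p12, which spans 1391 kb, GABRG1 and GABRA2 rose, GABRA4 was too scarce to test and GABRB1 had no row. Of its flanking genes with a test, GUF1 (0.26 ± 0.08), GNPDA2 (0.55 ± 0.10), COMMD8 (0.71 ± 0.11) and ATP10D (1.17 ± 0.08) rose, and CORIN (-0.12 ± 0.20) did not pass. Of all genes tested 33.7% rose, and whether the region moved as a whole was not tested.

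In the Xq28 cluster (704 kb) GABRQ rose, GABRA3 did not pass, and no flanking gene could be tested. Whether members of a cluster moved together more than other neighbouring genes was not tested.

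**Figure D4:**
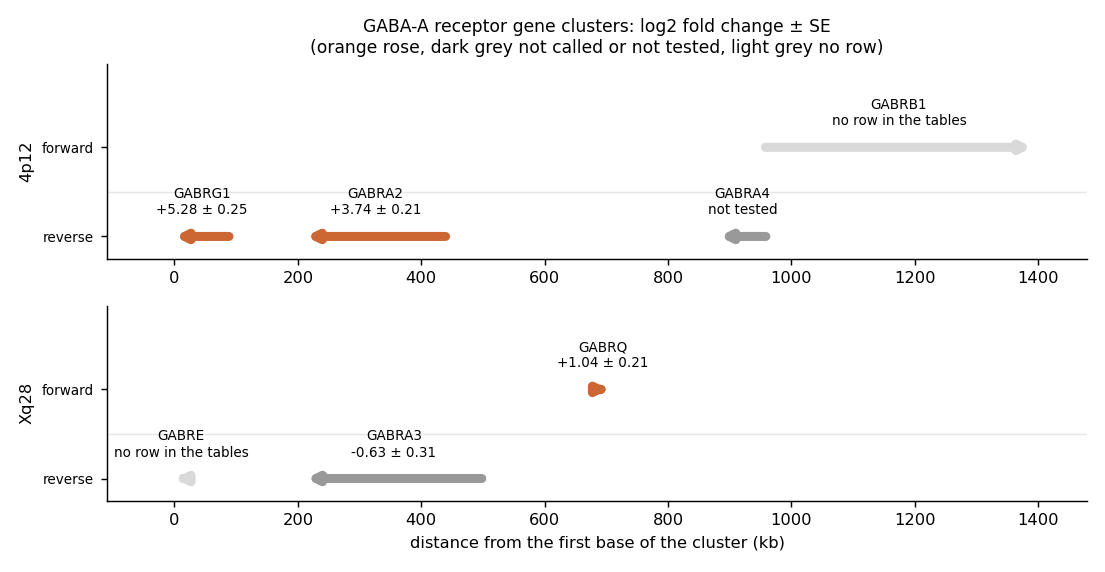
GABA-A gene clusters at 4p12 and Xq28 drawn to scale, with distance from the cluster's first base in kb on the horizontal axis, forward-strand genes above reverse-strand genes and the log2 fold change ± SE over each gene. At 4p12 the tested subunit genes GABRG1 and GABRA2 rose (5.28 and 3.74), and at Xq28 GABRQ rose (1.04).

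The 2 GABA-B genes, whose products work only as a pair, held 1 call, which was lost in several settings. GABBR1 (chromosome 6, 29555629 to 29633976), the subunit that binds GABA, read 7.43, 6.85 and 6.87 CPM with vehicle and 11.0, 8.58 and 7.87 CPM with panobinostat (0.37 ± 0.15, edgeR adjusted p = 0.0417). The highest value was that of panobinostat library A, without which the change was 0.23 (edgeR adjusted p = 0.180). It also missed the threshold without vehicle library B (edgeR adjusted p = 0.104), vehicle library C (0.110) or panobinostat library B (0.0575), with DESeq2 (adjusted p = 0.0702), with no filter (edgeR adjusted p = 0.0597) and with limma on unfiltered FPKM (adjusted p = 0.0527). GABBR2, the subunit that couples to the G protein, read 5.84, 5.38 and 4.16 CPM against 4.42, 3.55 and 3.91 CPM. Its arms overlapped, and -0.37 ± 0.18 did not pass (edgeR adjusted p = 0.0866), although it did without vehicle library C (-0.51, edgeR adjusted p = 0.0345).

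Both glycine receptor genes with a row rose, beside 33.7% of all genes tested, a count too small to mark anything particular to the family. GLRA3 (ENSG00000145451, chromosome 4, 174636914 to 174829314), the alpha subunit known from spinal pain pathways, stood at 1.73, 0.878 and 1.56 CPM with vehicle and 15.3, 12.3 and 10.8 CPM with panobinostat. The gap between the arms was wider than the spread within either, at 3.21 ± 0.22 (edgeR adjusted p = 1.15e-08). GLRB (chromosome 4, 157076057 to 157172090), the beta subunit that binds gephyrin, read 11.6, 13.0 and 13.2 CPM against 17.9, 23.1 and 22.2 CPM (0.74 ± 0.12, edgeR adjusted p = 5.86e-05). GLRB made up 96.2 ± 1.38% of their summed FPKM with vehicle and 81.8 ± 4.72% with panobinostat. In a bulk library, more RNA per cell and a larger share of cells with that RNA cannot be told apart, here as for the other genes.

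**Figure D5:**
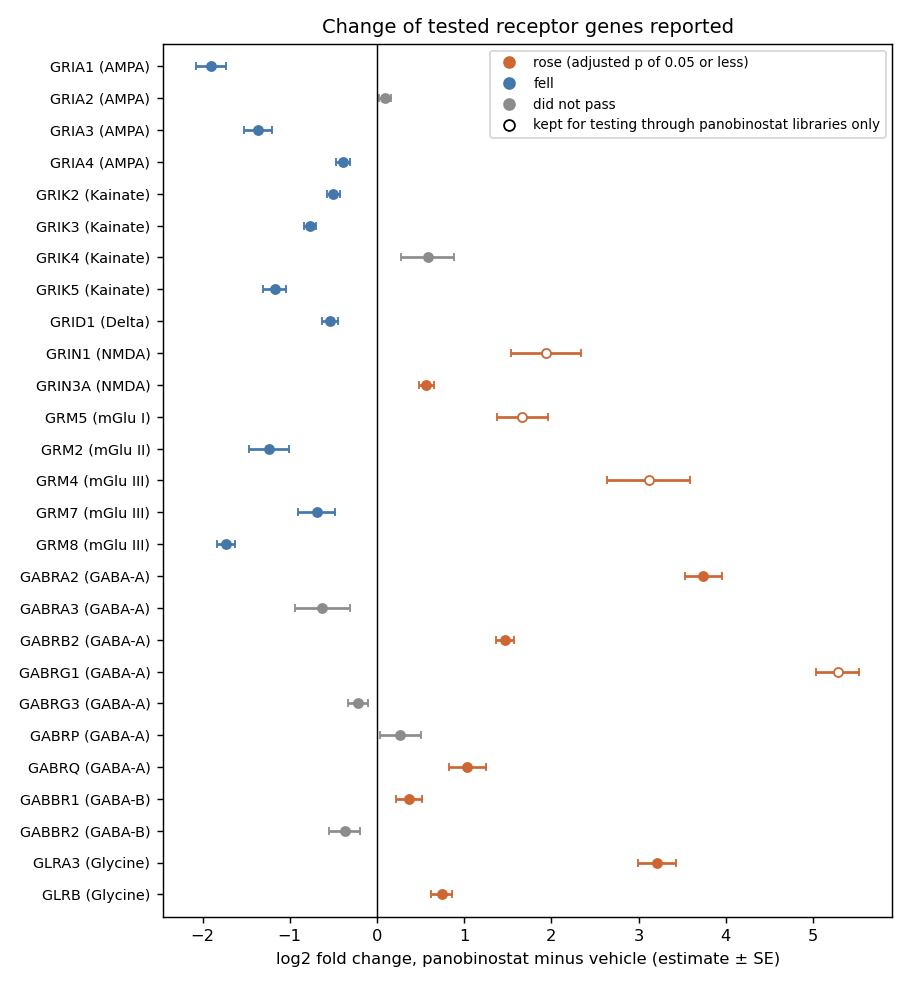
Log2 fold change (panobinostat minus vehicle, estimate ± SE, edgeR) of 27 tested receptor genes in family order, with open circles for genes kept for testing through panobinostat libraries only. GABRD and GRIN3B are left out because they had 0 and 1 vehicle counts, 5 other tested genes are not shown, and the values run from -1.90 for GRIA1 to 5.28 for GABRG1.

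The proteins that travel with these receptors were described from lists written with earlier results of these data known. Of 18 auxiliary subunits of glutamate receptors, 13 had a row and 12 were tested, of which 5 rose and 5 fell (median log2 fold change -0.30, beside 0.01 over all genes tested). Beside this and the counts below stand the 33.7% of all tested genes that rose and the 31.5% that fell. Of these 12, 9 passed the filter in both arms, and the others passed through panobinostat libraries only, which favours a rise. NETO2 (ENSG00000171208), which slows kainate receptor kinetics, fell from 159 ± 3.71 to 49.1 ± 4.08 CPM (-1.70 ± 0.08). CNIH2 (-0.91 ± 0.16) and CACNG4 (-0.86 ± 0.08), both AMPA receptor partners, also fell. CACNG7, a relative of CACNG4, rose by 0.99 ± 0.17, and NPTX1, a pentraxin that clusters AMPA receptors, by 1.67 ± 0.20. The auxiliary genes of AMPA receptors therefore moved in both directions.

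Of 21 glutamate receptor scaffold and trafficking genes, 20 were tested, of which 2 rose and 9 fell (median -0.24). SHANK2 (-2.05 ± 0.17), GRIP1 (-1.25 ± 0.23), which binds AMPA receptors, and DLG3 (-0.98 ± 0.11), which binds NMDA receptors, fell. DLG2 (0.99 ± 0.20) and HOMER3 (0.49 ± 0.14), which binds group I metabotropic receptors, rose. Of 17 anchoring and auxiliary genes of GABA and glycine receptors, 16 were tested, of which 6 rose and 8 fell (median -0.08), with 15 passing the filter in both arms. GPHN, which encodes the anchor gephyrin, fell from 55.6 ± 0.174 to 30.0 ± 2.36 CPM (-0.89 ± 0.08), while GLRB, its binding partner, rose. PLCL1, a carrier of GABA-A receptors, rose from 33.8 ± 5.20 to 115 ± 5.56 CPM (1.76 ± 0.10). Of the auxiliary subunits of GABA-B receptors, KCTD12 rose by 0.86 ± 0.07 and KCTD8 fell (-0.75 ± 0.13).

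Of 15 genes that make or break down the transmitters, 14 were tested, of which 7 rose and 5 fell (median 0.17). Of the 14, 12 passed the filter in both arms, and GAD1 (7 vehicle counts) and GLS2 (0 vehicle counts) passed through panobinostat libraries only. GAD1, the enzyme that makes GABA, rose from 0.150 ± 0.0578 to 4.58 ± 0.390 CPM (4.91 ± 0.33) on 7 vehicle counts. ABAT, which breaks GABA down, rose from 15.1 ± 2.37 to 36.7 ± 0.944 CPM (1.29 ± 0.11). GLUL, glutamine synthetase, fell from 188 ± 2.48 to 96.7 ± 0.349 CPM (-0.96 ± 0.07). GLUD1, glutamate dehydrogenase, fell (-0.75 ± 0.07), with the reservation that reads of the nearly identical GLUD2 could be split between both.

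Of 18 transporters, 10 were tested, of which 6 rose and 4 fell (median 0.86), and 3 of the 10 passed the filter only through panobinostat libraries. SLC17A8, a vesicular glutamate transporter, rose from 8.39 ± 1.28 to 46.5 ± 5.66 CPM (2.46 ± 0.13). SLC1A2, a glutamate uptake carrier, fell from 116 ± 11.1 to 43.0 ± 1.05 CPM (-1.44 ± 0.08), and SLC6A9, a glycine uptake carrier, also fell (-1.19 ± 0.13). SLC7A11, which exchanges cystine for glutamate, rose by 1.19 ± 0.16. Of 6 cotransporters that set the chloride gradient, 4 were tested and 1 rose. Among the other 22 Cys-loop subunits, the nicotinic and serotonin receptors and ZACN, 10 were tested, of which 4 rose and 4 fell. Of the 10, 9 passed the filter in both arms. CHRNA5 (1.37 ± 0.07) was among those that rose and CHRNA3 (-0.72 ± 0.07) among those that fell.

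Markers of other cell types moved with the arms. The 7 glial markers with a row each stood under 1 FPKM in the vehicle mean, and their sum was 0.427 to 0.660 FPKM with vehicle and 2.39 to 2.84 FPKM with panobinostat. The 5 of them that were tested all rose, but only 1 passed the filter in both arms. The 10 mature neuron markers summed to 349 to 366 FPKM and 304 to 344 FPKM, yet 5 of them rose and 3 fell (median log2 fold change 0.06), with the abundant STMN2 (-0.90 ± 0.08) and NEFH (-0.82 ± 0.09) among those that fell. The neuroblast markers summed to 1717 to 1929 and 1458 to 1530 FPKM, and of the 10 tested 1 rose and 8 fell. Their part in the changes of the receptor genes was not tested.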

How the data were processed

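RNA sequencing gave 6 libraries with the HT1197 label, 3 per arm. The authors deposited whole-number counts per gene from featureCounts (version 1.5.0-p3, per the file headers); the submitters' processing notes give version 1.5.1 and name Novoalign 2.8, Subread and hg38. Ensembl 84 genes were counted with respect to strand (option 2), a read going to the gene of largest overlap, per the file headers. The header lists 9 alignment files, of which 3 were not analysed here. The authors also deposited FPKM, and all 64991 values tested (those with 100 counts or more) were within 1% of counts scaled by gene length and column total. No source used here gives the rule for the rows.

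Symbols and coordinates came from GENCODE 29 (22459 of 22718 identifiers). In edgeR 4.0.16 (R 4.3.3), filterByExpr kept genes at a minimum count of 10 and a minimum total of 15, TMM gave the scaling, and the quasi-likelihood test ran over all genes kept. The CPM here are TMM-scaled. FPKM, scaled by the column total without TMM, served to compare genes by length, to sum families and markers, and for limma. TMM factors were 0.956 to 0.971 with vehicle and 1.03 to 1.05 with panobinostat. Sums of FPKM therefore stand higher with panobinostat, relative to vehicle, than TMM scaling would put them. The floor used for genes at 0 was 3 counts in the vehicle arm as a whole. In a single library, 3 counts equal 0.165 to 0.224 CPM by column total, without TMM. Spread over the arm the floor is lower than that. Intervals are exact at 95% and cover counting error. The steps were run on simulated data in which only few genes changed, unlike here, so that run does not check the scaling of these libraries.

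The members and lists were chosen with earlier results of these data known. Receptor genes with a row were named by rule, and some results are not reported here. From each context list, up to 3 genes that rose and 3 that fell most, at 1 CPM or more on average, were eligible, and a part of them is described. Alternatives were DESeq2 1.42.0, other scalings and filters, a block for the letter, a stricter threshold of 0.01, limma 3.58.1 on log2(FPKM + 1) and log2(FPKM + 0.1), and each library left out.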

Additional observations from a re-analysis of the deposited data

How the results depend on the processing

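Each of the 34 tested receptor genes kept its direction in each setting in which it was tested, and 28 of them also kept their call. The other 6 were GABBR1, GABBR2, GABRG3, GRIA2, GRM4 and GRM7. With limma on log2(FPKM + 1), and on log2(FPKM + 0.1), filtered at a mean of 1 FPKM, 7 receptor genes rose and 7 fell, because only 15 receptor genes were left to test. In the other settings 13 to 19 rose and 10 to 12 fell, and leaving out each library in turn gave 16 to 18 and 11 to 12. With the letter as a replicate block 17 rose and 11 fell. Deviations from the arm means correlated at 0.08, -0.02 and 0.10 for same-letter libraries, beside -0.12 to 0.05 for different letters. As these values were small, the letters were not used as pairs in the main fit. Depth limits the genes with few vehicle counts, above all GRIN1, GRIN2C, GRIN2D, GRIN3B, GRM3, GRM4, GABRD and GABRG1, whose folds are imprecise.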
